A study of Homo sapiens with 4 samples.

Results

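AP-1 is a family of dimeric transcription factors, and 9 genes that encode its subunits were followed here in nascent RNA: FOS, FOSB, FOSL1 and FOSL2 of the FOS class, JUN, JUNB and JUND of the JUN class, and ATF3 and BATF3 of the ATF and BATF classes. They were chosen by gene symbol, and all 9 were found among the 60048 genes of the deposited table. The cells were HCT116, a human colorectal carcinoma line, of the genotype RAD21-mAC, in which the cohesin subunit RAD21 is fused to a degron, so that auxin brings about its degradation. Cohesin encircles DNA and extrudes chromatin loops. Both groups carry the fusion. The control group received DMSO and the auxin group 0.5 mM indole-3-acetic acid for 3 h, with 2 libraries in each. Newly made RNA was labelled with 0.5 mM 5-ethynyl uridine (EU) for 20 min, captured and sequenced (EU-seq). The title of the series concerns cohesin's part in the release of paused RNA polymerase and in elongation.

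The subunits pair through a leucine zipper and bind DNA through an adjoining basic region. JUN proteins form dimers with one another or with FOS proteins, whereas FOS proteins need a partner. Many of these genes are immediate early genes: they are short, hold RNA polymerase paused near the start, and are transcribed within minutes of growth factor or stress signals passed on by the ERK, JNK and p38 kinases. In epithelial and carcinoma cells AP-1 is known for its role in proliferation, invasion and the response to stress.

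The table holds 1 value per gene and library, a signal over the whole gene span including introns, so signal near the promoter cannot be told from signal in the gene body. The values are a scaled signal and not read counts, and the depth in reads is unknown. Totals on the deposited scale ran from 61135244 to 93113007, and both extremes were auxin libraries. Libraries were made comparable with trimmed means of M-values, so a global rise or fall in nascent RNA would not show. Nothing in the labels says that the 2 libraries of a group came from separate cultures, so p-values measure only the spread between these libraries. In the fit that spread was mostly pooled over genes, which gave 8.21 of 10.2 degrees of freedom. The epithelial markers EPCAM, KRT8, KRT18, KRT19, CDH1, CDX2 and VIL1 together held between 58109 and 65418 per library, against 99.6 to 112 for 5 immune markers, 654 to 1086 for 5 fibroblast markers and 604 to 833 for 4 endothelial markers. The summed fibroblast and endothelial markers were higher in both auxin libraries (944 to 1086 and 699 to 833) than in both control libraries (654 to 810 and 604 to 676), and their part in the results was not tested. Of the fibroblast markers, COL1A1 held 580 to 995, whereas COL1A2 lay between 0 and 5.34; no marker was at 0 in every library. In bulk libraries a change in the number of transcribing cells and a change in RNA per cell cannot be told apart.

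The stretches of DNA before 5 of the members are shown because these genes give the contrasts described below: JUN, JUND and ATF3, whose auxin libraries both lay above both control libraries, and FOS and JUNB, whose groups overlapped. Each is the 250 bases before a RefSeq start (GRCh38.p14), and RefSeq windows were matched for 7 of the 9 members, all but FOSL1 and BATF3. Capitals mark matches, searched on both strands, to 3 motifs. The first is the 8-base element TGACNTCA, which ATF and JUN dimers bind. The second is the 7-base element TGANTCA of JUN and FOS dimers. The last is the TATA box, TATAAA.
JUN (chr1:58784048-58784297, minus strand): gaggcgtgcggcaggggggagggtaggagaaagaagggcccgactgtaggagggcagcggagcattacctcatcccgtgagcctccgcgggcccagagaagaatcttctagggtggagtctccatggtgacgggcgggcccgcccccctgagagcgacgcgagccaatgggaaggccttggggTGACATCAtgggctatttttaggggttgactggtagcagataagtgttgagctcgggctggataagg
JUND (chr19:18281623-18281872, minus strand): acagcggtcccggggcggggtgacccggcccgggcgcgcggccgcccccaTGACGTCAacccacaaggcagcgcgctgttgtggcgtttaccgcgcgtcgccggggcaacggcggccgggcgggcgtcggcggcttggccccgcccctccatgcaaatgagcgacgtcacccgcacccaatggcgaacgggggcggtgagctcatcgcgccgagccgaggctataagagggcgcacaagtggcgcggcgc
ATF3 (chr1:212565157-212565406, plus strand): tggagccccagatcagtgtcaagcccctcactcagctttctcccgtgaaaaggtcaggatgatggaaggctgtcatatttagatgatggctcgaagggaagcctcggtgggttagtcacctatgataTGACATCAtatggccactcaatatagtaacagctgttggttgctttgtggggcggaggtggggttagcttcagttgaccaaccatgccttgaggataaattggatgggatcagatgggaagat
FOS (chr14:75278578-75278827, plus strand): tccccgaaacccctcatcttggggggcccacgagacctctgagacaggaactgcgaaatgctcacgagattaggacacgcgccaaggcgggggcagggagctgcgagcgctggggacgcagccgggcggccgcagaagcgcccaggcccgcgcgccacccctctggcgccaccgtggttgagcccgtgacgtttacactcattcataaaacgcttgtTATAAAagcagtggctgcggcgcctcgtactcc
JUNB (chr19:12791236-12791485, plus strand): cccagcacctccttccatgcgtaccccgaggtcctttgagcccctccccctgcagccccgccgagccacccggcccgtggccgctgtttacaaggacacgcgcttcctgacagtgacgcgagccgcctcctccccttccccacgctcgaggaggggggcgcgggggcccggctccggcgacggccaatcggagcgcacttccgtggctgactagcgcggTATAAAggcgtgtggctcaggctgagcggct

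In these windows JUN and ATF3 held the same element, TGACATCA, beginning at -67 and -123 from the start, and JUND held TGACGTCA at -200. FOS and JUNB held no exact match to the 8-base element, and each held TATAAA, at -33 and -31. The printed genes were picked by whether their groups overlapped, so they cannot show whether a motif goes with the response, which was not tested. FOSB, not printed, also held TATAAA, and its groups overlapped here but lay apart with library-total and median-ratio scaling. Over 35116 RefSeq windows of this length, TGACNTCA was present in 6.87%, TGANTCA in 6.57% and TATAAA in 10.7%. The letters of the first 2 do not allow their matches to overlap. TGANTCA was absent from the windows of all 7 members, FOSB (a TATAAA at -30) and FOSL2 (no match) included. ATF3 has a second RefSeq window, which held no match to the 8-base element but the letters TATAAA at -230, far from the start. The window printed belongs to the outermost start. Which start was in use was not measured, and it may lie in neither window. A match is a description of letters, and binding was not measured.

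On average ATF3 was about 2-fold and JUN 1.43-fold higher with auxin and BATF3 was at 0.618 of its control level, none of them past the threshold, and FOS, FOSL1 and JUNB differed by less than the spread between replicates. FOSB and FOSL2 also overlapped between the groups. No member passed the threshold of an adjusted p under 0.05 in limma, against 0.737% of all 39464 genes tested (0.329% higher and 0.408% lower). All 9 members passed the filter on low values. At an unadjusted p under 0.05 there were 3 members, ATF3 and JUN higher and BATF3 lower, against 10.3% of all genes (4.6% higher and 5.71% lower). The groups did not overlap for 4 members, against 38.3% of all genes. Both auxin libraries lay above both control libraries for 3 members (ATF3, JUN and JUND; 18% of all genes) and below for 1 (BATF3; 20.2% of all genes). The median log2 fold change was 0.084 over the members and 0.0013 over all genes tested.

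**Figure D1:**
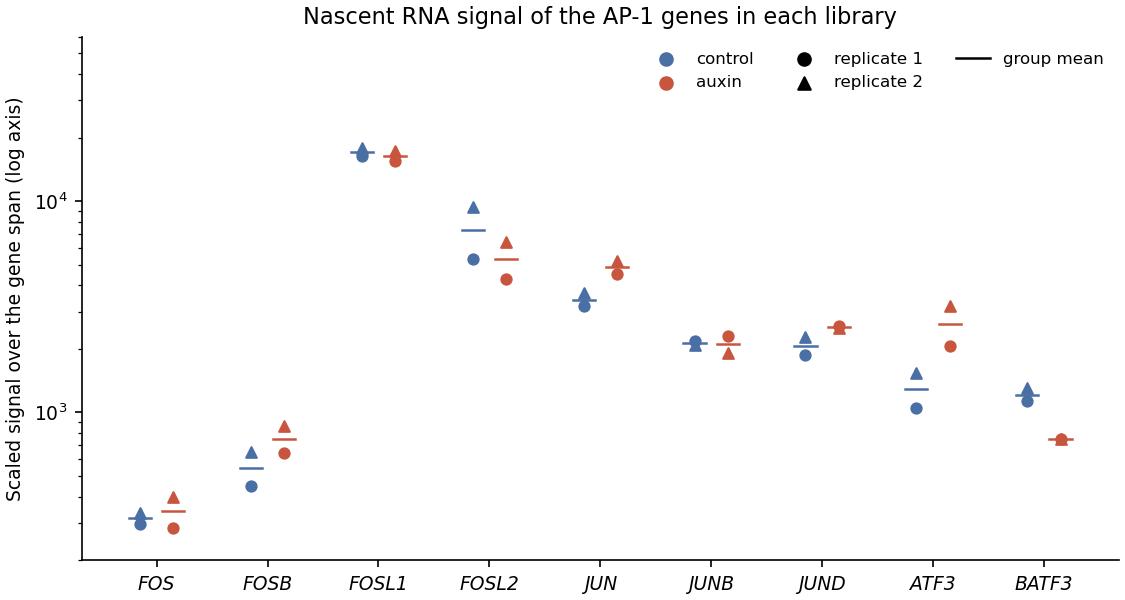
Scaled signal of the 9 AP-1 genes in each library on a log axis, with control in blue, auxin in red, circles for replicate 1, triangles for replicate 2 and a line at each group mean (n = 2). The groups are apart for JUN, JUND, ATF3 and BATF3 and overlap for the other 5; levels of different genes are not comparable here because spans differ.

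ATF3, a stress-induced bZIP factor that can repress or activate its targets, showed the widest difference. The gene (ENSG00000162772) lies on the plus strand of GRCh38 chromosome 1, 212565334 to 212620772. Its scaled signal was 1051 and 1538 in control replicates 1 and 2, and 2066 and 3178 in auxin replicates 1 and 2. Every auxin library was thus above every control library, and replicate 2 was above replicate 1 in both groups. The control mean was 1295 ± 345 and the auxin mean 2622 ± 786 (SD, n = 2 each), with a log2 fold change of 1.01 (SE 0.24, 95% interval 0.48 to 1.54, limma adjusted p = 0.111). Without auxin replicate 1 the log2 fold change was 1.33, and without auxin replicate 2 it was 0.70, so its size depended on the auxin library left out. Each of these fits leaves 1 auxin library, so only the size is given.

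BATF3, a partner of JUN proteins best known from dendritic and T cells, lies 65644 bases beyond the end of ATF3 and on the opposite strand (ENSG00000123685, minus strand, chromosome 1, 212686417 to 212699840). It stood at 1128 and 1302 in control and at 747 and 750 in auxin. Both auxin libraries were below both control libraries and nearly equal to each other. The means were 1215 ± 123 and 748 ± 2.29 (SD, n = 2 each), and the log2 fold change was -0.69 (SE 0.18, 95% interval -1.09 to -0.30, limma adjusted p = 0.14).

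The differences of the neighbours ATF3 and BATF3 had opposite signs. Their ratio within a library, which no scaling of the library alters, was 0.932 and 1.18 in control and 2.77 and 4.24 in auxin. It averaged 1.06 ± 0.18 and 3.501 ± 1.04 (SD, n = 2 each), or 3.31 times as high with auxin (two-sided exact permutation p = 0.33 over 3 splits, the smallest the design allows). This ratio was chosen after the values were seen. Between the 2 genes, the overlapping pair AL590648.2 and FAM71A was listed with equal values, 1.70 and 1.03 in control and 12.5 and 15.7 in auxin. The lncRNA gene LINC02773 stood at 19.6 and 16.4 in control and 41.8 and 53.7 in auxin (log2 fold change 1.36, limma adjusted p = 0.23). These low signals were higher with auxin, as was ATF3, while NSL1, a kinetochore gene on the far side of BATF3, was at 3114 and 3057 in control and 2669 and 2859 in auxin (log2 fold change -0.16, limma adjusted p = 0.84).

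**Figure D2:**
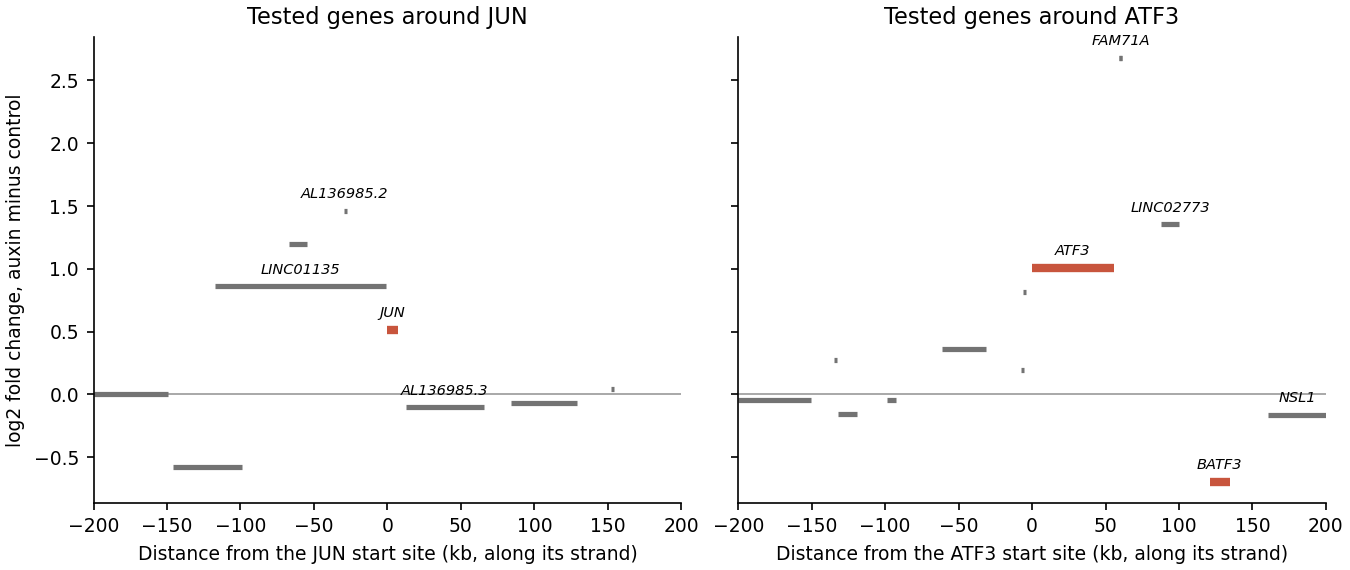
Log2 fold change (auxin minus control) of each tested gene within 200 kb of the JUN start (left, 9 genes) and of the outermost ATF3 start (right, 13 genes), drawn over its span against the distance in kb along the strand of that gene, with AP-1 members in red. JUN and LINC01135, on either side of the JUN start, lie at 0.51 and 0.86, and BATF3 at -0.69 lies beyond genes with positive values.

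JUN, the central partner of FOS proteins and a substrate of JNK, was the third member, after ATF3 and BATF3, with an unadjusted p under 0.05. The gene (ENSG00000177606) lies on the minus strand of chromosome 1, 58776845 to 58784048, a span of 7204 bases that runs past the RefSeq gene of 3257 bases. JUN stood at 3185 and 3660 in control and at 4535 and 5238 in auxin, so the groups did not overlap. The means were 3422 ± 336 and 4886 ± 497 (SD, n = 2 each), and the log2 fold change was 0.51 (SE 0.15, 95% interval 0.18 to 0.84, limma adjusted p = 0.194). On the deposited scale the groups barely separated, at 3707 in the higher control and 3708 in the lower auxin library. The lncRNA gene LINC01135 begins 1080 bases from the JUN start and runs the other way. It stood at 479 and 350 in control and 743 and 749 in auxin, with a log2 fold change of 0.86 (limma adjusted p = 0.127). On the other side of JUN, the lncRNA gene AL136985.3 overlapped between the groups, at 97.0 and 122 in control and 94.3 and 109 in auxin.

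JUND, an intronless JUN gene whose product is often found in resting cells, lies on chromosome 19, 18279694 to 18281622, minus strand (ENSG00000130522). Its signal was 1873 and 2266 in control and 2570 and 2509 in auxin. The groups did not overlap, but the gap was smaller than that between the control replicates. The log2 fold change was 0.30 (SE 0.16, 95% interval -0.05 to 0.66, limma adjusted p = 0.591), and on the deposited scale the groups overlapped, at 1865 and 2295 against 2102 and 3043. The neighbouring gene IQCN was the 1 gene next to or overlapping a member that passed the threshold, as 0.737% of all genes tested did. IQCN rose from 335 and 327 in control to 695 and 712 in auxin (log2 fold change 1.09, limma adjusted p = 0.0359); the adjusted p was 0.987 on the deposited scale, and between 0.0505 and 0.0926 when any 1 library was left out.

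JUNB, which can restrain JUN, also lies on chromosome 19 (ENSG00000171223, plus strand, 12791486 to 12793315). It stood at 2181 and 2090 in control and at 2301 and 1912 in auxin. The control libraries lay between the auxin libraries, and the log2 fold change was -0.03 (SE 0.16, 95% interval -0.38 to 0.33, limma adjusted p = 0.992). The sign was positive with scaling by library total (0.02). The first part of the JUNB span overlaps HOOK2, on the opposite strand, which was at 2566 and 2308 in control and 2667 and 2111 in auxin, and genes that overlap share signal in this table.

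FOS, the founding immediate early gene, whose product needs a partner such as JUN, did not differ beyond the spread between replicates. The gene (ENSG00000170345, plus strand, chromosome 14, 75278828 to 75282230) stood at 298 and 336 in control and at 283 and 397 in auxin. The auxin libraries lay on both sides of the control libraries. The log2 fold change was 0.08 (SE 0.24, 95% interval -0.44 to 0.61, limma adjusted p = 0.977), and it was -0.16 without auxin replicate 2. A change of FOS within that interval was not detectable here, and the interval does not mark the limit of detection. ATF3, with a like SE (0.24), did not pass the threshold at a log2 fold change of 1.01.

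FOSB, which like FOS is rapidly induced, was at 448 and 647 in control and at 642 and 863 in auxin (ENSG00000125740, plus strand, chromosome 19, 45467996 to 45475179). Auxin replicate 1 lay just inside the control range, at 642 against 647. The log2 fold change was 0.47 (SE 0.24, 95% interval -0.06 to 0.99, limma adjusted p = 0.561), about as large as the difference between the replicates of either group (0.53 in control and 0.43 in auxin). Taken by replicate number, which may not mark pairs, it was 0.52 for replicate 1 and 0.42 for replicate 2. With library-total scaling the groups separated, and with median-ratio scaling they just did so, at 643 in the higher control against 646 in the lower auxin library.

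FOSL1 encodes FRA1, the FOS-class subunit often abundant in carcinoma lines with active RAS signalling. It lies on chromosome 11, 65892049 to 65900419, minus strand (ENSG00000175592). FOSL1 stood at 16308 and 17939 in control and at 15479 and 17345 in auxin, with overlapping groups. Its interval was the narrowest of the family: the log2 fold change was -0.06 (SE 0.12, 95% interval -0.32 to 0.20, limma adjusted p = 0.955).

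FOSL2 encodes FRA2 and lies on chromosome 2, 28392858 to 28417317, plus strand (ENSG00000075426). It stood at 5317 and 9335 in control and at 4298 and 6401 in auxin. The control replicates differed more than the groups did: the log2 difference between replicates was 0.81 in control and 0.57 in auxin, against -0.43 between groups (SE 0.25, 95% interval -0.99 to 0.14, limma adjusted p = 0.665). Taken by replicate number, auxin minus control was -0.31 for replicate 1 and -0.54 for replicate 2. Whether equal numbers mark pairs is not stated. Leaving out control replicate 2 brought the group difference to -0.02, and leaving out control replicate 1 brought it to -0.82. The lncRNA genes FLJ31356 and AC104695.3 overlap FOSL2, and FLJ31356 was at 907 and 1360 in control and 791 and 1052 in auxin.

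**Figure D3:**
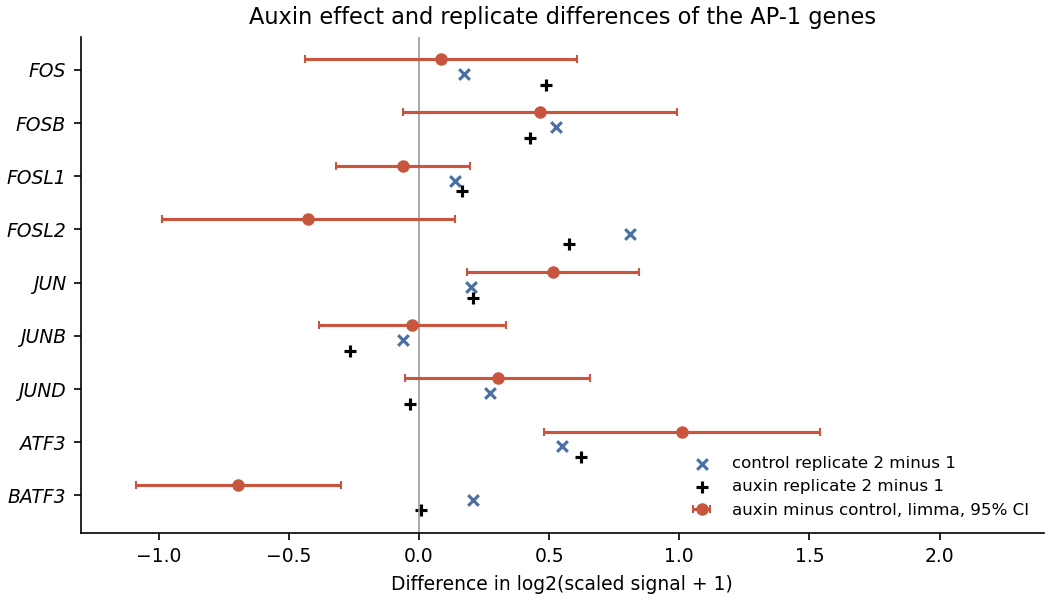
Log2 fold change of each AP-1 gene (red circle, auxin minus control, with its 95% limma interval, n = 2 each) beside the log2 difference between replicate 2 and replicate 1 in control (blue cross) and in auxin (black plus). The intervals of JUN, ATF3 and BATF3 lie off 0, and the replicate difference of FOSL2 in control (0.81) is larger than its auxin effect.

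The replicates themselves differed in one direction over most of the family. Control replicate 2 was above control replicate 1 for 8 of 9 members, JUNB being the exception, and auxin replicate 2 was above auxin replicate 1 for 7 of 9, all but JUNB and JUND. Over all genes tested these shares were 49.7% and 51.0%. In control, replicate differences were widest for FOSL2, ATF3 and FOSB and narrowest for JUNB and FOSL1. In auxin they were widest for ATF3, FOSL2 and FOS and narrowest for BATF3 and JUND.

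Levels of different members were compared per kb of span. FOSL1 was highest, with a scaled signal of 1849 to 2143 per kb over the 4 libraries, above 99.8% of the 17767 tested protein-coding genes. JUND (971 to 1332 per kb) and JUNB (1045 to 1257 per kb) came next with overlapping ranges, followed by JUN (442 to 727 per kb over its long span) and FOSL2 (176 to 382 per kb). FOS (83.2 to 117 per kb), FOSB (62.4 to 120.2 per kb) and BATF3 (55.6 to 97.0 per kb) overlapped one another. ATF3, over its span of 55439 bases, ran from 19.0 to 57.3 per kb. It was the lowest of the 9 in 3 libraries and just above BATF3 in auxin replicate 2 (57.3 against 55.9). The median over tested protein-coding genes was 63.2 per kb. Within the FOS class, FOSL1 held 84.1% and 79.0% of the summed signal per kb in control and 84.2% and 80.6% in auxin, so the class was dominated by the same gene in both groups. Within the JUN class, JUN held 16.97% and 18.0% in control and 19.6% and 23.7% in auxin, higher in both auxin libraries. The place of JUN and its share depend on the span used, 7204 bases here against 3257 in RefSeq. The place of ATF3 likewise depends on a span that begins at its outermost start. Signal over shorter spans was not available, so the order by other annotations is unknown. Spans ran from 1830 bases for JUNB to 55439 for ATF3, and 8 of 9 were under the median of tested protein-coding genes, 29789 bases.

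Other genes of the pathway were read from 4 lists, and calls in each stand beside the 0.737% of all genes tested that were called. Of 11 other bZIP partners, 10 were tested and 0 were called in limma, although 4 had an unadjusted p under 0.05 (10.3% of all genes did). Both auxin libraries lay above both control libraries for 5 of them and below for 1, against 18% and 20.2% of all genes tested. The median log2 fold change was 0.37, but 0.17 among those whose mean reached 50, 0.18 without control replicate 2 and 0.19 without auxin replicate 2. JDP2, a repressor that pairs with JUN and lies 145791 bases past FOS on chromosome 14, was at 1260 and 1861 in control and 1867 and 3018 in auxin (log2 fold change 0.63, limma adjusted p = 0.392). MAFG, a small MAF protein, was at 7243 and 5297 in control and 10226 and 8890 in auxin (log2 fold change 0.62, limma adjusted p = 0.15), the smallest p of that list.

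Of 21 upstream kinases and SRF or TCF factors, which carry signals to the FOS and JUN promoters, all were tested, 0 were called in limma and 4 had an unadjusted p under 0.05, against 10.3% of all genes. Both auxin libraries were above both control libraries for 5 and below for 6 (18% and 20.2% of all genes tested), with a median log2 fold change of 0.0048. SRF, which binds the serum response element of FOS, overlapped between groups, at 5834 and 6748 in control and 6775 and 6182 in auxin. The smallest p was that of MAP2K1, the kinase MEK1 above ERK, at 16446 and 15470 in control and 11179 and 11557 in auxin (log2 fold change -0.49, limma adjusted p = 0.0968). RPS6KA5, the kinase MSK1, which phosphorylates chromatin at immediate early genes, was at 1812 and 3536 in control and 818 and 1441 in auxin (log2 fold change -1.22, limma adjusted p = 0.151). It is named for the size of its value, which ranged from -1.69 (control replicate 1 left out) to -0.74 (control replicate 2 left out). With auxin replicate 2 left out it was -1.63.

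Of 23 genes known as AP-1 targets, 17 were tested, and 0 were called higher and 1 lower (0.329% and 0.408% of all genes tested were). An unadjusted p under 0.05 was found for 7, of which 6 were lower (5.71% of all genes were). Both auxin libraries lay above both control libraries for 3 and below for 8, where the shares over all genes were 18% and 20.2%. The median log2 fold change was -0.16, and it was 0.02 without auxin replicate 2. CCND1, cyclin D1, fell from 27313 and 28634 in control to 17086 and 16031 in auxin, or -0.76 on the log2 scale (SE 0.10, limma adjusted p = 0.0108). Its adjusted p was 0.0503 without control replicate 2 and 0.999999 on the deposited scale. The urokinase gene PLAU was at 3287 and 2710 in control and 2221 and 1919 in auxin, whereas the gene of its receptor, PLAUR, was at 8871 and 7534 in control and 12462 and 13073 in auxin (limma adjusted p = 0.232 and 0.0567). The collagenase and stromelysin genes MMP1, MMP3, MMP10 and MMP13, classical AP-1 targets, were below the filter.

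Of 21 other immediate early genes, all were tested, and 1 was called higher and 0 lower (0.329% and 0.408% of all genes tested were). An unadjusted p under 0.05 was found for 9, 6 of them higher (4.6% of all genes were). The groups lay apart for 7 above and 6 below, against 38.3% of all genes in either direction, with a median log2 fold change of 0.12. The called gene was CCN2, a matrix protein gene, which rose from 614 and 907 to 1600 and 1817 (log2 fold change 1.19, limma adjusted p = 0.0361); the adjusted p was 0.117 without control replicate 1, 0.585 on the deposited scale and 0.0507 among protein-coding genes alone. EGR1, like FOS a target of SRF, was at 1614 and 2268 in control and 2285 and 4221 in auxin (log2 fold change 0.70, limma adjusted p = 0.371). KLF4 was at 1089 and 919 in control and 569 and 438 in auxin (log2 fold change -1.002, limma adjusted p = 0.0654); EGR1 and KLF4 are named after their values were seen.

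**Figure D4:**
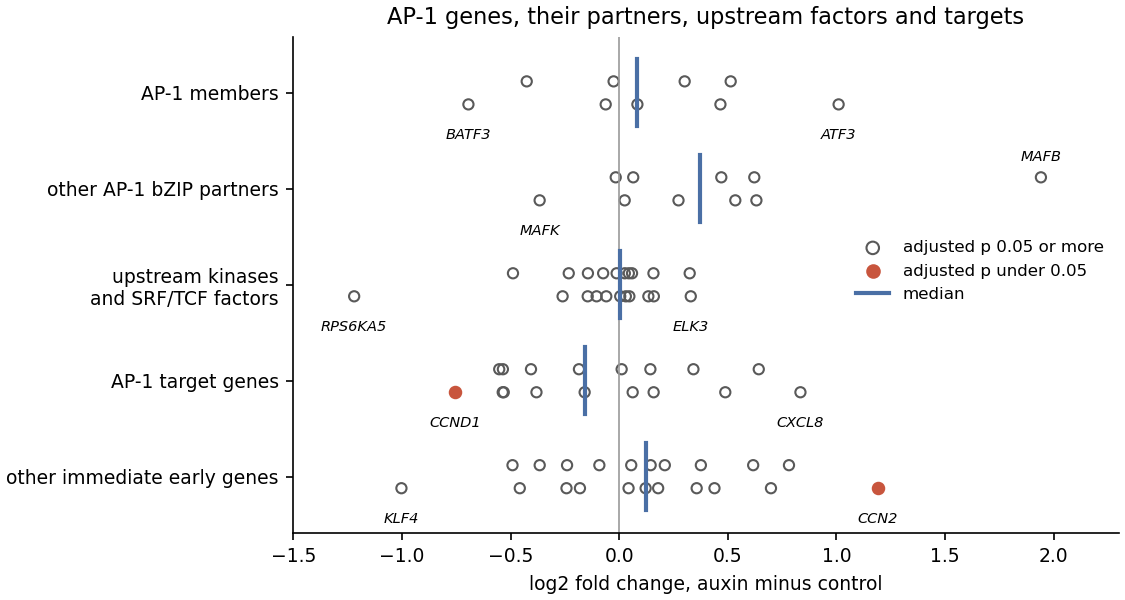
Log2 fold change (auxin minus control) of the 9 AP-1 genes and of the tested genes of 4 pathway lists, 1 circle per gene, filled where the limma adjusted p was under 0.05, with a bar at each median; the genes at both ends of each row are named. CCND1 at -0.76 and CCN2 at 1.19 are the 2 filled circles, and the 9 AP-1 genes run from -0.69 (BATF3) to 1.01 (ATF3).

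Among 15994 tested protein-coding genes whose mean reached 50, those closest in pattern were found by the Euclidean distance between centred log2 values over the 4 libraries. For FOS they were IL3RA (distance 0.030) and RPS6KA2 (0.033), for JUN they were CDSN (0.028) and SFXN3 (0.043), and for ATF3 they were ADTRP (0.12) and CYRIA (0.17). ADTRP stood at 138 and 189 in control and 285 and 421 in auxin, the order of libraries seen for ATF3. Over 4 libraries such closeness is a description only.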

How the data were processed

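EU-labelled RNA was measured in 4 libraries, grouped by their titles. Per the labels' protocols, fly S2 RNA was mixed in before capture. The submitters' processing notes name Trimmomatic 0.39, Bowtie2 2.4.5 and deepTools 3.5.1 with builds hg38 and dm6; the counting rule, annotation and scaling are not given in the sources used here. The authors deposited a signal per gene and library. Low values were whole multiples of 1 step per column (100% of values up to 20 steps, within 0.05 of a step), as scaled counts would be. Genes of at least 10 kb, however, held 1 step in only 2 to 8 cases per library and 2 steps in 141 to 221. What a step stands for is therefore unknown, it was not taken to be 1 read, and no count test was run. Of 32 gene pairs with like ends on opposite strands, 29 had values within 10% of each other in all libraries, so the signal does not separate strands. The header of control replicate 2 is misspelt, and its number identified it. Starts count from 0 and are printed 1 higher; 6 of 9 members then matched the RefSeq span of GRCh38 at both ends.

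Genes with a value of at least 10 (in a library of median total) in 2 libraries and a total of at least 15 entered the fit. Trimmed means of M-values dropped the outer 30% of log ratios and 5% of mean levels on either side. With a pseudocount of 1, log2 values were fitted in limma 3.58.1 (R 4.3.3; lmFit, eBayes with trend; Benjamini-Hochberg over all genes tested, threshold 0.05). The pseudocount shrinks fold changes of low genes. Members and lists were chosen with earlier results of these data known. The rule for named genes took the members, genes overlapping them, the called genes and the smallest p of each list, and the 2 patterns closest to FOS, JUN and ATF3. Genes outside this rule were named after their values were seen: those beside or near a member without overlap (among them IQCN, LINC01135, AL136985.3, NSL1 and the genes between ATF3 and BATF3), and JDP2, SRF, RPS6KA5, PLAU, PLAUR, EGR1, KLF4 and the MMP genes. Tables and figures used Python 3.11.15, pandas 2.3.3 and matplotlib 3.10.9. Alternatives were other scalings, filters and pseudocounts, protein-coding genes only, the replicate number as a block, and leaving out each library.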

Additional observations from a re-analysis of the deposited data

How the results depend on the processing

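No member was called in limma under any scaling, filter or pseudocount tried, or among protein-coding genes alone. ATF3, JUN, JUND, FOSB, FOSL2 and BATF3 kept their sign in all 13 alternatives, but with 1 library left out FOSL2 ranged from -0.82 to -0.019, FOSB from 0.22 to 0.73 and JUND from 0.18 to 0.44. The sign of JUNB was turned by library-total scaling (0.017) and ranged from -0.15 to 0.11 when 1 library was left out; FOSL1 ranged from -0.14 to 0.032 and FOS from -0.16 to 0.34. With 1 library left out, the lone library of its group is assumed to vary like the others; 0 to 1 member was then called (ATF3, without auxin replicate 1), 156 to 679 genes in all against 291, 1 to 9 pathway-list genes against 2, and 0 genes next to or overlapping a member against 1, while 5 to 8 members had groups that did not overlap, against 4; over all genes this share was then 64.3% to 72.7%, against 38.3%.

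On the deposited scale 55 genes were called in all, 0 in the pathway lists and 0 beside the members; the cause was not tested. Among protein-coding genes alone 162 were called in all, of fewer genes tested, and 1 in the pathway lists. The share of higher genes among those called was 44.7%, and 52.6% with library-total scaling. That scaling added PLAUR to the pathway-list genes called. The sign of the median of AP-1 targets turned without the filter (0.012).

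Whether equal replicate numbers mark a shared culture or day is not stated, and only 2 pairs exist. The replicate differences of control and auxin correlated across genes (Pearson's r 0.231, Spearman's rho 0.306; 0.462 and 0.448 over the 29160 genes whose mean reached 50, all members among them). With the replicate block, 4314 genes were called (10.9%), 27 in the pathway lists, 4 beside the members, and 5 members: ATF3 (limma adjusted p = 1.99e-14), BATF3 (1.69e-05), JUN (7.10e-05), FOSL2 (9.30e-04) and FOSB (0.0227). With only 2 pairs, the block leaves little to estimate a gene's own spread. These p-values therefore rest mostly on a spread pooled over genes. Those of the fit without the block do so too (8.21 of 10.2 degrees of freedom), but the block leaves fewer to the gene itself. The p-values with and without the block are not comparable. A count test on whole reads was not run, as the values could not be taken to be whole reads.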
